A study of Mus musculus with 10 samples.

Results

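Chemokines are small secreted proteins that guide leukocytes by binding receptors on their surface, and they are named for the spacing of their first cysteines (CC, CXC, CX3C and XC). In the small intestine the epithelium itself makes some of them, among them CCL25 and CCL28, which draw T cells and antibody-secreting cells to the mucosa, while stromal cells, lymphocytes and myeloid cells make others. Interferons induce a further set, CXCL9, CXCL10 and CXCL11, in many cell types. The genes described here are the mouse genes whose symbols begin with Ccl, Cxcl, Cx3cl or Xcl followed by a number and at most 1 letter. On the array, 34 of 22180 genes with a probe set of their own met this rule, 19 CC, 13 CXC, 1 CX3C and 1 XC gene. Ccl19 and the Ccl21 family share their probe sets with near-identical copies (13 and 9 probe sets with several symbols) and were not used here.

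RNA from 10 mouse jejunum samples, with 1 array each, was compared between 2 groups. The 5 Fed Knockout arrays came from Pcyt1aLoxP/LoxP;VilCreERT2 mice, in which tamoxifen activates a Cre recombinase under the villin promoter, so that Pcyt1a is cut in the intestinal epithelium and not in the other cells of the tissue. The 5 Fed Control arrays came from Pcyt1aLoxP/LoxP mice without the recombinase. Pcyt1a encodes the enzyme of the rate-limiting step of phosphatidylcholine synthesis. All animals were females aged 10 to 12 weeks, all received tamoxifen for 5 days and a high fat diet for 3 days, and all were fasted overnight and re-fed the diet for 2 hours before a 3 cm piece was taken. Because only the knockout group carries the recombinase, what it does by itself and the loss of Pcyt1a cannot be told apart.

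Pcyt1a itself fell in the knockout group. Its log2 intensity was 7.58, 7.47, 7.58, 7.24 and 7.66 in knockout arrays 1 to 5, against 9.14, 9.27, 8.95, 9.23 and 9.51 in control arrays 1 to 5 (difference -1.71, SE 0.11, limma adjusted p = 6.51e-05). The markers of enterocytes, the absorptive cells of the tissue, were level across the arrays, with a mean over 10 genes of -0.04 to 0.06 in knockout arrays and -0.08 to 0.04 in control arrays, on a log2 scale centred per gene. Some arrays stood apart. The mean of 7 genes of the distal small intestine was 0.67 to 1.29 in knockouts 2 to 5, against -0.91 to -0.14 in the controls. Knockout 1 was at -1.02, below all controls. Apart from knockout 1 this mean follows the groups, so a fit with it as a covariate cannot tell the mean and the groups apart. Over all 22180 genes, 3 were called with this covariate, where 76 were called without it. Of 8 genes of the proximal small intestine, 7 had lower values in knockout and 1 fell, S100g, an epithelial calcium-binding protein gene (-1.79, SE 0.33, limma adjusted p = 0.0469), a call that was lost when any array other than knockout 1 was left out (limma adjusted p 0.026 to 0.151 over the 10 omissions). Control 5 had the lowest means of the macrophage and dendritic cell list (-0.87) and of the fibroblast and stromal list (-0.85). The means of the B cell and follicle list were highest in knockout 5 (0.89) and control 2 (0.88). The part these differences play in the results that follow was not tested, and in a piece of whole tissue fewer cells of a type and less RNA per cell cannot be told apart.

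Of the 34 chemokine genes, 0 were called higher and 0 lower at a limma adjusted p under 0.05, where 0.343% of all 22180 genes were called. The smallest adjusted p among them was 0.279. At an unadjusted p under 0.05 there were 4 of 34 (11.8%), against 12.1% of all genes. Of these 4, Ccl20 had higher values in knockout (5.82% of all genes were higher at this level), and Ccl6, Ccl24 and Xcl1 had lower ones (6.25% of all genes). In 0 of the 34 did the knockout arrays lie wholly on 1 side of the control arrays, which held for 2.77% of all genes. Values were higher in knockout in 16 (49.9% of all genes were) and lower in 18, and the median difference was -0.0013 on the log2 scale, beside -0.00035 for all genes. In this fit of all 10 arrays the share of chemokine genes past either level is thus near or below that of the array as a whole.

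How tightly these data bound a difference varied between the genes. For 25 of the 34, the 95% confidence interval of the knockout minus control difference lay within a 1.5-fold change in either direction. For 6 genes it reached a 2-fold change: Cxcl13, Ccl5, Cxcl9, Cxcl10, Ccl6 and Ccl24. The spread between arrays of 1 group was larger for chemokine genes, with a median within-group SD of 0.26 and a range from 0.07 for Ccl25 to 1.38 for Cxcl13, than for all genes, with a median of 0.18. Of the 34 probe sets, 8 were among the dimmest 30% of genes. For these an interval bounds the intensity, and whether that intensity tracks the transcript was not tested.

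**Figure D1:**
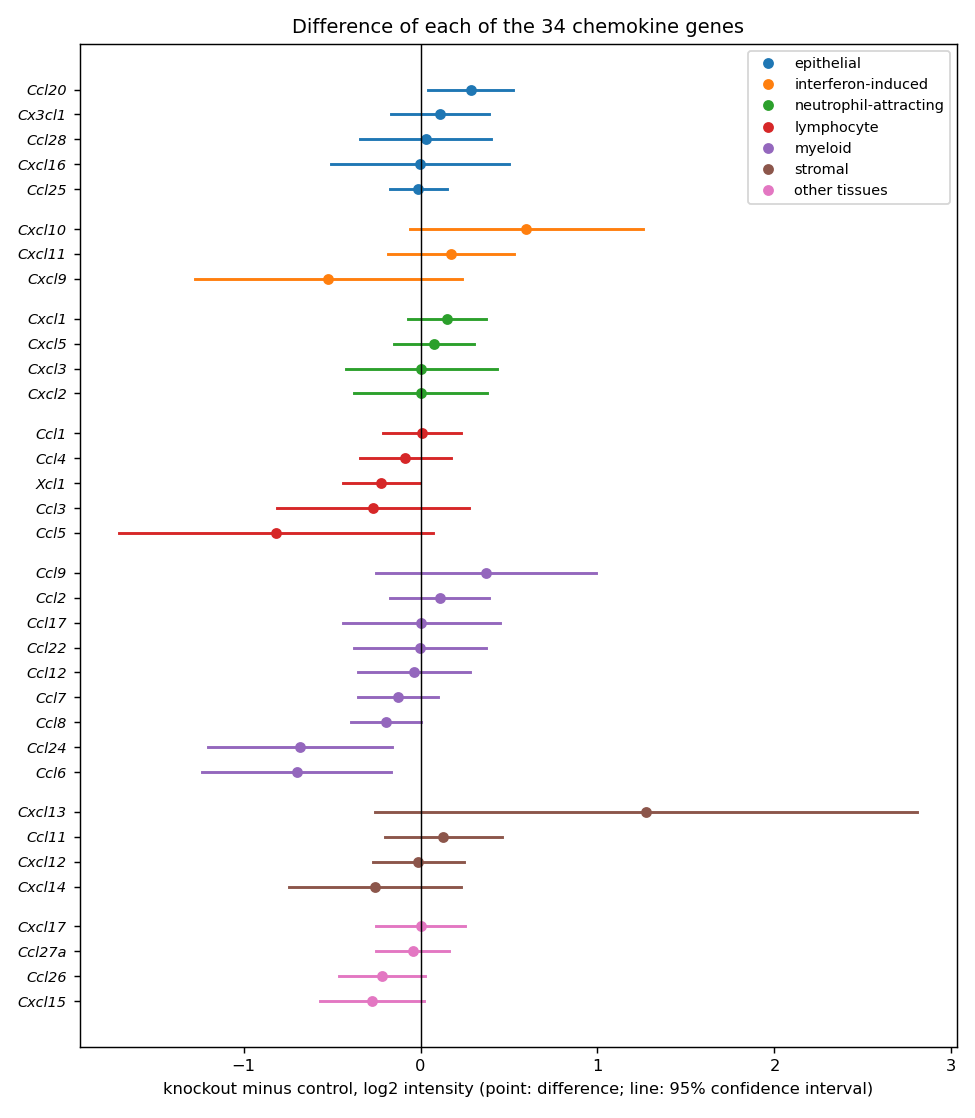
Knockout minus control difference in log2 intensity for each of the 34 chemokine genes (points) with its 95% confidence interval (lines). Colours mark the source assigned by hand to each chemokine, and genes are ordered by difference within each source. The vertical line marks 0. Differences run from -0.82 for Ccl5 to 1.28 for Cxcl13, and the intervals of Ccl20, Xcl1, Ccl24 and Ccl6 lie to 1 side of 0 before any adjustment for the number of genes.

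The 5 chemokine genes assigned to the epithelium, the cells in which Pcyt1a was cut, are Ccl25, Ccl28, Ccl20, Cx3cl1 and Cxcl16, of which Cx3cl1 and Cxcl16 are also made by other cells. None of the 5 passed the test, and for all 5 the confidence interval lay within a 1.5-fold change. Ccl25, whose product binds CCR9 on T cells and antibody-secreting cells bound for the small intestine, had a log2 intensity of 9.67, 9.70, 9.80, 9.91 and 9.79 in knockout arrays 1 to 5, against 9.77, 9.75, 9.80, 9.84 and 9.77 in control arrays 1 to 5. Knockouts 1 and 2 lay below all controls, knockout 4 lay above them, and knockouts 3 and 5 lay among them. The difference was -0.01 (SE 0.07, 95% confidence interval -0.17 to 0.15, limma adjusted p = 0.971). The SD was 0.09 in knockout and 0.03 in control arrays, and that difference in spread was not tested. The within-group SD of Ccl25, 0.07, was the smallest of the 34 genes, in arrays that differed widely in their distal genes.

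Ccl28, the ligand of CCR10, was at 7.29, 7.55, 7.28, 7.83 and 6.97 in knockout arrays and at 7.42, 7.18, 7.84, 7.19 and 7.14 in control arrays 1 to 5. Both groups held arrays near 7.8 and arrays near or below 7.2, and the difference was 0.03 (SE 0.17, 95% confidence interval -0.34 to 0.40, limma adjusted p = 0.968). Ccl20, which recruits CCR6-bearing lymphocytes and dendritic cells and is induced in the epithelium over lymphoid follicles, was at 5.65, 5.55, 5.83, 5.85 and 5.93 in knockout arrays, against 5.32, 5.71, 5.25, 5.61 and 5.50 in control arrays. Knockouts 3 to 5 lay above all controls, while knockouts 1 and 2 lay among them. The difference was 0.28 (SE 0.11, 95% confidence interval 0.04 to 0.52, unadjusted p = 0.0247 and adjusted p = 0.331 with limma). The mean of the follicle-associated epithelium and M cell list was -0.19 to 0.25 in knockout arrays and -0.20 to 0.35 in control arrays.

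Cx3cl1 encodes fractalkine, the ligand of CX3CR1 on mononuclear phagocytes, and it stood at 9.06 ± 0.22 in knockout and 8.95 ± 0.21 in control (SD, n = 5 each), a difference of 0.11 (SE 0.13, limma adjusted p = 0.797). Cxcl16, the ligand of CXCR6, averaged 9.08 in both groups. Its difference was -0.00091 (SE 0.23, 95% confidence interval -0.50 to 0.50), and the spread among knockout arrays, from 8.50 in knockout 4 to 9.83 in knockout 5, was wider than the range of 8.67 to 9.30 among controls. That difference in spread was not tested.

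**Figure D2:**
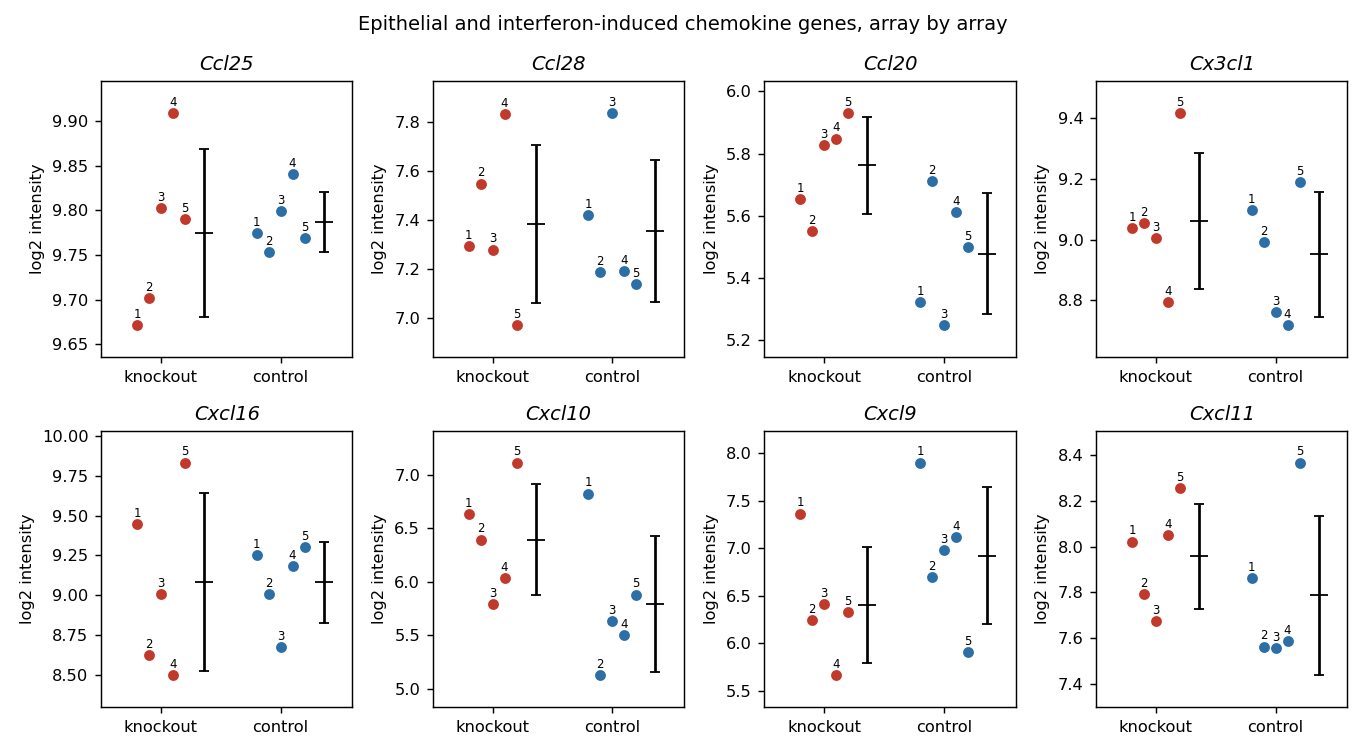
Log2 intensity of the 5 epithelial and 3 interferon-induced chemokine genes in the 5 knockout (red) and 5 control arrays (blue), with array numbers above the points and mean ± SD beside each group; each panel has its own scale. Knockout and control arrays overlap in all 8 genes, and Ccl25 spans the narrowest range, 9.67 to 9.91.

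The interferon-induced chemokine genes, whose products all bind CXCR3 on activated T cells and natural killer cells, did not share a direction. Cxcl10 was at 6.63, 6.39, 5.79, 6.03 and 7.11 in knockout arrays 1 to 5, against 6.82, 5.13, 5.64, 5.50 and 5.88 in control arrays 1 to 5. All knockouts lay above controls 2 to 4, while control 1 lay among the highest knockouts and control 5 among the lowest. The difference was 0.60 (SE 0.30, 95% confidence interval -0.06 to 1.26, limma adjusted p = 0.464). It was 0.25 with knockout 5 and control 2 left out together, a setting added after the data were seen.

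Cxcl9, which lies beside Cxcl10 in the genome, was at 7.36, 6.24, 6.41, 5.66 and 6.32 in knockout arrays and at 7.90, 6.70, 6.98, 7.11 and 5.91 in control arrays. Knockouts 2 to 5 lay below controls 1 to 4, while knockout 1 and control 5 lay within the other group's range. The difference was -0.52 (SE 0.35, 95% confidence interval -1.27 to 0.23, limma adjusted p = 0.601) and -0.27 without control 1. It was -1.01 with knockout 1 and control 5 left out together (limma adjusted p = 0.0988), a setting added after the data were seen. These arrays were the highest knockout and the lowest control, so leaving them out had to widen the difference. With the distal gene mean, which nearly follows the groups, as a covariate it was 0.05. Cxcl11, listed as a transcribed pseudogene in the C57BL/6J reference (RefSeq, GRCm38.p6), stood at 7.96 ± 0.23 in knockout and 7.79 ± 0.35 in control (SD, n = 5 each; difference 0.17, SE 0.16, limma adjusted p = 0.744).

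Neither Cxcl10 nor Cxcl9 passed the test. Their promoters are shown because these neighbours share a receptor and an inducer and yet had differences of opposite sign. Each runs from 250 bases before to 50 after the start of the gene (RefSeq, GRCm38.p6, minus strand), at chr5:92348840-92349139 for Cxcl10 and chr5:92328030-92328329 for Cxcl9. Capitals mark matches, on either strand, to the core of the interferon-stimulated response element, spelled GAAA, any 2 bases and GAAA again, and to 2 forms of the kB site bound by NF-kB, GGGA and TTCC with 2 bases between them or, in the shorter form, GGGA, any base and TTCC, which were chosen after these sequences had been read.
Cxcl10: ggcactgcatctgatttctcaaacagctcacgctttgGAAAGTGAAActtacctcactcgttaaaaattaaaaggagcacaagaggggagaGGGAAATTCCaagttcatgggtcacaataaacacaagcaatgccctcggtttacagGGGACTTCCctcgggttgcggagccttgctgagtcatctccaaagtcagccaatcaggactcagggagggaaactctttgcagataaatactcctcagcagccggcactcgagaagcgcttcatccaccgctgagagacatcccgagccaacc
Cxcl9: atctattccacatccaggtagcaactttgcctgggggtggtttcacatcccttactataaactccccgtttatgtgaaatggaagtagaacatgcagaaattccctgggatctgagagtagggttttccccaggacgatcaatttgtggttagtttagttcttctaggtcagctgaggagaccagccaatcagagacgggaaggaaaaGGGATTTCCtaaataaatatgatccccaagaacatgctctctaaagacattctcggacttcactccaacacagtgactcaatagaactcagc
The Cxcl10 window held 1 match to the response element, its first base 213 bases before the start, and 1 match to each form of the kB site, at 159 and 103 bases before the start, with no overlap between them. The Cxcl9 window held 1 match to the shorter kB form, 42 bases before the start. Of 32817 mouse promoter windows of this length, 3.43% held the response element, 1.68% the shorter kB form and 1.47% the longer one. These matches are letters in the sequence and do not show binding. No other element was searched for, so a window without a match may still hold another interferon element.

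Interferon response genes outside the chemokines had higher values in knockout in 16 of 16 measured cases, with 0 called and 9 at an unadjusted p under 0.05 in limma, and a median difference of 0.70. Over all genes, 49.9% had higher values, 0.343% were called and 12.1% had an unadjusted p under 0.05. These shares belong beside the counts of every list in this report. Oasl2, an interferon-induced oligoadenylate synthetase-like gene, stood at 1.45 (SE 0.28, limma adjusted p = 0.0561). The mean of this list was highest in knockout 5 (1.33) and knockout 1 (0.57), which are also the knockout arrays with the highest Cxcl10. Across the 10 arrays, Cxcl10 followed this mean with Pearson's r = 0.78 (permutation p = 0.00444, adjusted over 6 relations 0.00888) and Spearman's rho = 0.79 (permutation p = 0.00914, adjusted 0.0183). The 6 relations were chosen with earlier results of these data known, so their p-values here and below only describe. The permutations ran across both groups, so a shared group shift adds to r. Without knockouts 1 and 5, the arrays farthest from the median, r was 0.56 over 8 arrays, and on deviations from the group means it was 0.69. Cxcl9 did not follow it, with r = -0.21 (permutation p = 0.560, adjusted 0.560) and rho = -0.35 (permutation p = 0.330, adjusted 0.469).

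Among chemokine genes of lymphocytes, Ccl5, made by intraepithelial and other cytotoxic T cells, varied widely in both groups. It was at 9.14, 8.47, 7.60, 6.94 and 7.75 in knockout arrays 1 to 5, against 9.79, 8.48, 9.09, 8.78 and 7.83 in control arrays 1 to 5. Knockouts 3 to 5 lay below all controls, and knockouts 1 and 2 lay among them. The difference was -0.82 (SE 0.41, 95% confidence interval -1.70 to 0.07, limma adjusted p = 0.458) and -0.56 without knockout 4. It was -1.35 with knockout 1 and control 5 left out together, a setting added after the data were seen. These arrays were the highest knockout and the lowest control, so leaving them out had to widen the difference. It was -0.16 with the distal gene mean, which nearly follows the groups, as a covariate.

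The T cell and intraepithelial lymphocyte markers themselves had lower values in knockout in 10 of 10 measured cases, with 0 called, 4 at an unadjusted p under 0.05 in limma and a median difference of -0.59. Cd8a and Cd3e, of the CD8 co-receptor and the T cell receptor complex, had differences of -0.79 (SE 0.23) and -0.76 (SE 0.26). Knockout arrays had list means of -0.85 to 0.34, and control arrays had -0.11 to 0.89. Ccl5 followed it closely, with r = 0.95 (permutation p = 0.0001, adjusted 0.0003) and rho = 0.95 (permutation p = 0.00015, adjusted 0.00045), 0.88 for r without knockout 4 and control 1, and 0.94 on deviations from the group means. Cxcl9 too was highest, in each group, in the array with the highest T cell mean, knockout 1 and control 1, and lowest in the array with the lowest, knockout 4 and control 5. The macrophage and dendritic cell mean had the same extremes, 0.23 in knockout 1, 0.39 in control 1, -0.33 in knockout 4 and -0.87 in control 5. These matches were seen in the values, and neither was tested.

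Xcl1, which attracts cross-presenting dendritic cells through XCR1, was at 5.69, 5.88, 6.01, 5.74 and 5.92 in knockout arrays and at 5.99, 6.31, 5.93, 5.94 and 6.18 in control arrays. All but knockout 3 lay below the lowest control, and the difference was -0.22 (SE 0.10, unadjusted p = 0.0455 and adjusted p = 0.400 with limma). Ccl3, an inflammatory chemokine of activated lymphocytes and macrophages, had a difference of -0.27 (SE 0.25, limma adjusted p = 0.733), and the other two genes of this source, Ccl4 and Ccl1, lay between -0.09 and 0.01.

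The 9 chemokine genes assigned by hand to macrophages and other myeloid cells included the 2 smallest p-values of the whole set. Ccl6, a mouse chemokine that binds CCR1, was at 8.09, 8.34, 8.65, 8.83 and 8.24 in knockout arrays 1 to 5, against 9.44, 9.03, 9.64, 9.37 and 8.16 in control arrays 1 to 5. All 5 knockouts lay below controls 1 to 4, and control 5 lay among the knockouts. Among knockouts, Ccl6 was lowest in knockout 1, where the macrophage and dendritic cell mean was highest (0.23). It was highest in knockout 4, where that mean was lowest (-0.33). Among controls, both were lowest in control 5. The source of Ccl6 in this tissue was not tested. The difference was -0.70 (SE 0.25, 95% confidence interval -1.23 to -0.17, unadjusted p = 0.0143 and adjusted p = 0.279 with limma). Without control 5, the array lowest in macrophage and dendritic cell markers, it was -0.94 with a limma adjusted p of 0.0550. With knockout 1 left out as well it was -0.86 with a limma adjusted p of 0.0417, so that the call depends on these 2 arrays. That last setting was added after the data were seen. Over the 10 single omissions the difference ran from -0.94 to -0.57, with a limma adjusted p of 0.0550 to 0.473. Over all alternatives the highest limma adjusted p was 0.659, and the sign did not turn.

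Ccl9, the neighbour and close relative of Ccl6 and also a CCR1 ligand, is named after its values were seen. It was at 8.51, 8.52, 8.61, 9.18 and 7.79 in knockout arrays, against 8.41, 7.88, 8.97, 8.14 and 7.38 in control arrays. The groups overlapped, each with its lowest value in array 5, and the difference was 0.37 (SE 0.29, limma adjusted p = 0.670). The promoters of Ccl6 (chr11:83593038-83593337) and Ccl9 (chr11:83578587-83578886), both on the minus strand (RefSeq, GRCm38.p6), are shown because these relatives differed in the sign of their values. Capitals mark the runs of at least 10 bases that both windows share in the same order.
Ccl6: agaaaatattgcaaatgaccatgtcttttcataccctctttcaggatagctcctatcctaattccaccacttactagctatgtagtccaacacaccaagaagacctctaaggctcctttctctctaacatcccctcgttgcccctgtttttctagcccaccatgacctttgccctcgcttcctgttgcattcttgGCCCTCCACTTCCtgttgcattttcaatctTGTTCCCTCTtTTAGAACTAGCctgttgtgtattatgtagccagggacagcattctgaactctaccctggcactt
Ccl9: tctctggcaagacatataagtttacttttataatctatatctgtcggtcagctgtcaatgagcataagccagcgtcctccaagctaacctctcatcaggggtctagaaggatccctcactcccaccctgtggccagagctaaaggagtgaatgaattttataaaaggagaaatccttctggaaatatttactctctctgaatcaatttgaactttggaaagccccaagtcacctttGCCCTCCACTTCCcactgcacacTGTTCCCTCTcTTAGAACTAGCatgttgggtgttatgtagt
There were 3 such runs, of 10 to 13 bases and 34 bases in all of the 300 in each window. The response element and both kB forms had no match in either window.

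Ccl24, a ligand of CCR3 on eosinophils, was at 5.89, 4.90, 5.06, 5.03 and 5.48 in knockout arrays and at 5.64, 5.47, 5.81, 6.14 and 6.71 in control arrays. Knockouts 2 to 4 lay below all controls, and knockouts 1 and 5 lay among them. The difference was -0.68 (SE 0.24, 95% confidence interval -1.20 to -0.16, unadjusted p = 0.0143 and adjusted p = 0.279 with limma). It was -0.19 with the distal gene mean, which nearly follows the groups, as a covariate. Ccl8, which in the mouse binds CCR8, stood at -0.20 (SE 0.09, limma adjusted p = 0.414). The other five myeloid genes, Ccl2, Ccl7, Ccl12, Ccl17 and Ccl22, lay between -0.13 and 0.11. Macrophage and dendritic cell markers had higher values in knockout in 5 and lower ones in 7 of 12 cases, with 0 called in limma. In that list 1 gene had an unadjusted p under 0.05 (Itgam at 0.33), where 12.1% of all genes did. The neutrophil and eosinophil list had 0 of 8 at either level.

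**Figure D3:**
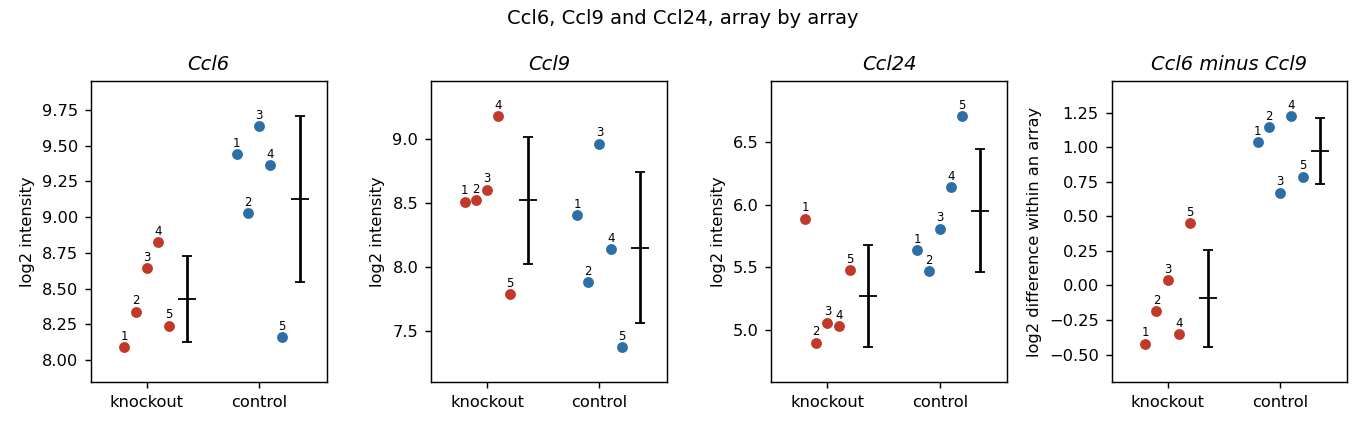
Log2 intensity of Ccl6, Ccl9 and Ccl24, and the log2 difference of Ccl6 and Ccl9 within each array, in the 5 knockout (red) and 5 control arrays (blue), with array numbers above the points and mean ± SD beside each group; each panel has its own scale. Control 5 is the 1 control among the knockouts for Ccl6, and the within-array difference is -0.42 to 0.45 in knockout arrays and 0.67 to 1.23 in control arrays. This pair was picked after its values were seen, and no test is given. Of 561 pairs of chemokine genes, 5 (0.891%) did not overlap between the groups.

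Among stromal chemokine genes, Cxcl13, made by follicular stromal and dendritic cells to draw CXCR5-bearing B cells into lymphoid follicles, had the widest range of all 34. It was at 6.20, 7.09, 7.02, 8.15 and 9.39 in knockout arrays 1 to 5, against 6.0, 8.94, 5.59, 5.68 and 5.25 in control arrays 1 to 5. All 5 knockouts lay above 4 of the controls, and control 2 lay above 4 of the knockouts. The difference was 1.28 (SE 0.70, 95% confidence interval -0.25 to 2.81, limma adjusted p = 0.516). It was 1.94 without control 2 (limma adjusted p = 0.190) and 0.82 without knockout 5. With the distal gene mean, which nearly follows the groups, as a covariate it was -0.28.

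The B cell and follicle markers had higher values in knockout in 8 of 8 measured cases, with 0 called and 0 at an unadjusted p under 0.05 in limma, and a median difference of 0.28. Ms4a1, which encodes the B cell antigen CD20, stood at 0.85 (SE 0.50). Cxcl13 followed the list mean almost without scatter, with r = 0.99 (permutation p = 1e-05, the smallest that 100000 draws can give, adjusted 6e-05) and rho = 0.99 (permutation p = 2e-05, adjusted 0.00012). It was 0.98 for r without knockout 5 and control 2, and 0.99 on deviations from the group means. The relations of Ccl25 with genes of the proximal small intestine (r = -0.22, permutation p = 0.547, rho = -0.12, permutation p = 0.757) and of Ccl20 with the follicle-associated epithelium and M cell list (r = 0.28, permutation p = 0.428, rho = 0.31, permutation p = 0.391) did not pass (adjusted 0.560 for both r, 0.757 and 0.469 for rho). Without the pair of arrays farthest from the median, these r were -0.16 for each.

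**Figure D4:**
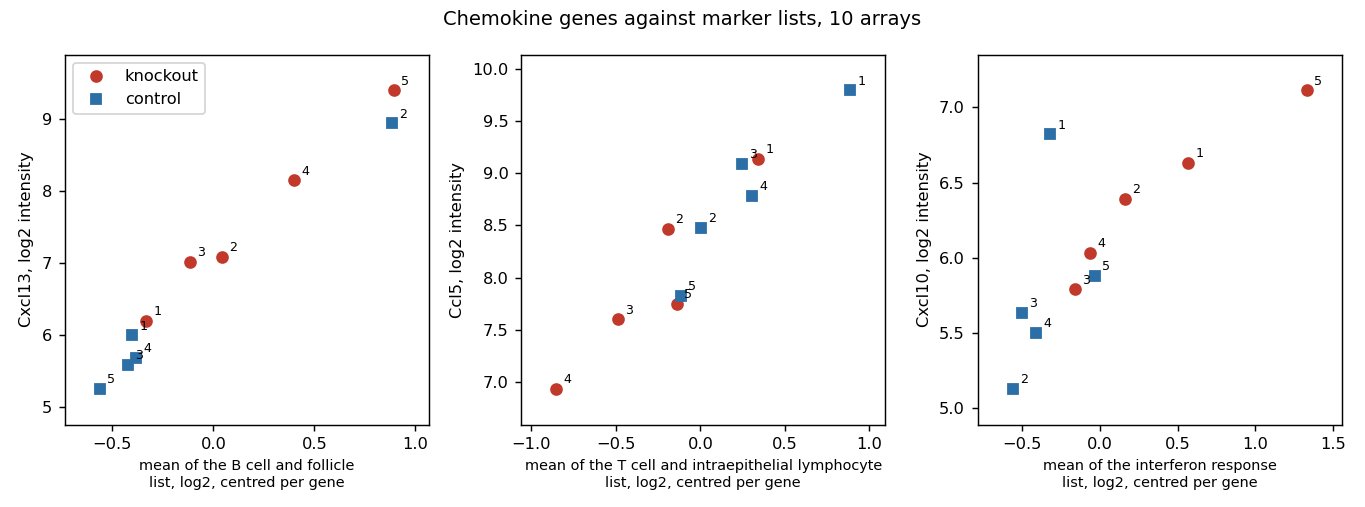
Log2 intensity of Cxcl13, Ccl5 and Cxcl10 (vertical axes) against the mean of a marker list (horizontal axes, log2, each gene centred on its mean over the 10 arrays), with knockout arrays as red circles, control arrays as blue squares and array numbers beside them. Cxcl13 and Ccl5 follow their lists across both groups (r = 0.99 and 0.95), while for Cxcl10 (r = 0.78) control 1 lies above the others of its list mean.

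Cxcl14, expressed by fibroblasts and epithelia, stood at 7.51 ± 0.24 in knockout and 7.76 ± 0.54 in control (SD, n = 5 each; difference -0.26, SE 0.22, limma adjusted p = 0.713). Ccl11, or eotaxin, which recruits eosinophils to the gut, was at 7.26, 6.58, 6.48, 6.36 and 6.32 in knockout arrays, against 6.47, 6.45, 6.49, 6.49 and 6.45 in control arrays. Only knockout 1 lay clearly above the others, and the difference of 0.13 (SE 0.15, limma adjusted p = 0.801) was -0.04 without it. Cxcl12, the ligand of CXCR4, had a difference of -0.01. Fibroblast and stromal markers had higher values in knockout in 8 of 8 cases, with 0 called and 3 at an unadjusted p under 0.05 in limma.

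The neutrophil-attracting genes Cxcl1, Cxcl2, Cxcl3 and Cxcl5, ligands of CXCR2, had differences of 0.0010 to 0.15, and all 4 were among the dimmest 30% of genes. For each the confidence interval lay within a 1.5-fold change. It bounds the intensity of a dim probe set, and whether that intensity tracks the transcript was not tested. Cxcl1 had the smallest p of them, with 4.82 ± 0.11 in knockout and 4.67 ± 0.18 in control (SD, n = 5 each; difference 0.15, SE 0.10, limma adjusted p = 0.605). The NF-kB and inflammatory cytokine genes had higher values in 7 and lower ones in 5 of 12 cases, with 0 called. In limma 3 had an unadjusted p under 0.05 (12.1% of all genes did), among them Il6 (0.30, SE 0.10) and Relb (0.50, SE 0.21). Il6 was among the dimmest 30% of genes, with a mean log2 intensity of 2.55. Chemokine genes of other tissues, the lung gene Cxcl15, the skin gene Ccl27a, Cxcl17 and Ccl26, lay between -0.28 and 0.0011, with adjusted p from 0.452 to 0.999. The second probe set of Ccl27a stood at 0.04, where the one used was at -0.04.

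On the receiving side, 0 of 17 measured chemokine receptor genes were called in limma (0.343% of all genes), and 2 passed an unadjusted p under 0.05 (12.1% of all genes). These were Ccr8 at -0.24 (SE 0.11, unadjusted p = 0.0469 and adjusted p = 0.403 with limma) and Ccr4 at 0.24 (SE 0.11, unadjusted p = 0.0494 and adjusted p = 0.412 with limma). Both were among the dimmest 30% of genes. Receptors of the epithelial chemokines had differences of -0.11 (SE 0.14) for Ccr9, -0.05 (SE 0.10) for Ccr10, 0.11 (SE 0.16) for Ccr6, -0.22 (SE 0.11) for Cx3cr1 and -0.32 (SE 0.17) for Cxcr6, and Cxcr3, the receptor of the interferon-induced set, was at -0.07 (SE 0.08). Ccr7, which guides dendritic cells and naive T cells to lymphoid tissue, was at 0.32 (SE 0.16). The median over the 17 was -0.04. Of 5 atypical and decoy receptors, which bind chemokines without classical signalling, 0 passed at either level, and Ackr4 and Ackr3 stood at -0.17 (SE 0.10) and -0.13 (SE 0.11). Gut homing adhesion genes had lower values in knockout in 6 of 6 cases with 0 called, and Itgae, the integrin that binds intraepithelial lymphocytes to E-cadherin, stood at -0.53 (SE 0.21, limma adjusted p = 0.344).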

How the data were processed

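Each deposited value is a probe set intensity, linear and not on a log scale. The authors used RMA in Affymetrix Expression Console 1.4.1.46, per the submitters' processing notes, and no further settings are known here. They ran from 1.8 to 15278.7, with array medians of 45.8 to 48.1, and log2 was taken before testing. RMA brings arrays to a shared distribution, so a shift of most transcripts would not show. Arrays were grouped by title, and no label says outright that each is a separate animal, so a p-value covers only the spread between the samples at hand, which may be technical. The number of arrays limits the precision.

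Gene symbols came from the platform annotation held by GEO. Of the probe sets, 23521 of 41345 carry 1 symbol, 1814 several and 16010 none. Those with 1 symbol gave 22180 genes, each by its probe set with the highest mean over all arrays. All 34 chemokine genes were found in the RefSeq gene table (GRCm38.p6), and 23 had promoter windows there (26 in all). The test was limma 3.58.1 (R 4.3.3) on all genes with group as the only term, with Benjamini-Hochberg over all of them, and the fit was tested on simulated data. Chemokines were assigned to sources by hand from general knowledge. The genes named are all epithelial and interferon-induced ones, in other classes the 3 with the smallest p and the brightest, the receptors of the first 2 classes and the next by p, and the 2 smallest p of each other list. Members, lists and relations were chosen with earlier results of these data known. Correlations with list means used Python 3.11.15 and scipy 1.17.1, with two-sided permutation over 100000 draws and adjustment over the 6 relations. Alternatives were other scalings, filters, probe set rules, variance models, weights, a replicate block, a distal gene covariate and omission of arrays.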

Additional observations from a re-analysis of the deposited data

Results flagged for a closer look

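Of 100 groups of 5 arrays examined (34 chemokine genes, Pcyt1a and 15 gene lists, in each genotype), 6 held 1 array far from the others by Dixon's test at the 95% level, where chance flags about 1 in 20. Cxcl13 was 8.94 in control 2, and the next control was at 6.0. The B cell and follicle list mean was 0.88 in the same array, and the next control was at -0.38. Ccl11 was 7.26 in knockout 1, with the next knockout at 6.58, and the mean of the distal small intestine genes was -1.02 in that array, with the next at 0.67. Cxcl1 was 5.01 in knockout 2, against 4.79 in the next knockout, and Ccl7 was 5.48 in knockout 3, against 5.33. Causes of these values were not tested.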

How the results depend on the processing

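No chemokine gene was called under the 9 planned settings other than left-out arrays, nor without any single array, where the counts called higher, called lower and among receptors ran from 0 to 0. After the data were seen, 2 settings were added. With knockout 1 and control 5 left out together, 1 gene was called lower, Ccl6. In that setting 9 of the 34 chemokine genes had an unadjusted p under 0.05 in limma, a larger share than the 12.1% of all genes. With knockout 5 and control 2 left out together that count was 7 of 34, again a larger share than the 11.8% of all genes. It was 3 to 7 of 34 with 1 array left out, where 9.31% to 13.6% of all genes passed. It was highest without knockout 1 (13.3% of all genes) and without control 5 (10.51%). With the replicate block it was 6 of 34 (11.9% of all genes).

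The replicate numbers were not shown to pair the arrays: deviations from the group means correlated between -0.13 and 0.12 across the 5 numbers, and 0 knockout arrays correlated best with the control of their number. Of 25 chemokine genes named, 14 kept their direction under all alternatives, while 11 did not and were never called. Signs turned for Cxcl16 with a median shift (0.00028), for Cxcl3 with quantile normalization (-0.0091), and for Cxcl17 (-0.024) and Ccr10 (0.014) with array weights. With the distal gene mean as a covariate they turned for Cxcl16 (0.18), Cxcl9 (0.053), Ccl3 (0.11), Cxcl3 (-0.0046), Ccl27a (0.10), Cxcl13 (-0.28), Ccr6 (-0.19), Ackr3 (0.010), Relb (-0.0076), Ms4a1 (-0.31) and Cd79b (-0.034). Without knockout 1 and control 5 they turned for Ccl28 (-0.0015), Ccl25 (0.0091), Cxcl17 (-0.014), Ccl11 (-0.040) and Ccr10 (0.056), and without knockout 5 and control 2 for Cxcl3 (-0.16) and Cxcl17 (-0.047). With 1 array left out, values ran from -0.082 to 0.15 for Ccl28, -0.046 to 0.014 for Ccl25, -0.19 to 0.14 for Cxcl16, -0.0034 to 0.14 for Cxcl5, -0.10 to 0.13 for Cxcl3, -0.085 to 0.029 for Ccl27a, -0.056 to 0.077 for Cxcl17, -0.036 to 0.20 for Ccl11 and -0.080 to 0.033 for Ccr10. The distal gene mean nearly follows the groups, so signs that turned with it as a covariate cannot be told apart from a loss of the group contrast. The cause of the turned signs was not tested.

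Without the pair of arrays farthest from the median, r was -0.62 for Cxcl9 and 0.56 for Cxcl10 with the interferon list, and -0.16 for Ccl20 with the M cell list. On deviations from the group means, r was 0.082 for Cxcl9 with the interferon list and -0.43 for Ccl25 with the proximal list.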

Other observations

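Within an array, the log2 difference of Ccl6 and Ccl9 was -0.42, -0.18, 0.04, -0.35 and 0.45 in knockout arrays 1 to 5, against 1.04, 1.15, 0.67, 1.23 and 0.79 in control arrays 1 to 5. The groups did not overlap, and the shift was -1.07, larger than that of either gene alone. This pair was picked after its values were seen, and it is 1 of 5 among the 561 pairs of chemokine genes (0.891%) whose within-array difference did not overlap between the groups, so no test is given. Control 5, where both genes were lowest among controls, lay with the other controls on this measure.

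The log2 difference of Cxcl10 and Cxcl9 was -0.73, 0.16, -0.62, 0.37 and 0.79 in knockout arrays 1 to 5, against -1.08, -1.57, -1.34, -1.61 and -0.03 in control arrays 1 to 5. Controls 1 to 4 lay below all knockouts and control 5 lay among them. It averaged -0.0068 ± 0.65 in knockout and -1.13 ± 0.65 in control (SD, n = 5 each), and it was not tested, as the pair was set side by side after its values were seen.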
